A study of Mus musculus with 8 samples.

Results

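Small noncoding RNA genes were the closest annotated gene at 444 of the 53761 H3K9me3 peaks called in mouse colon crypts. These peaks were taken by the name of that gene, which had to be a miRNA, a snoRNA, a spliceosomal or U7 snRNA, 7SK, a Y RNA or a 5S rRNA lying within 5 kb of the peak. They fell on 319 RNA genes. Of these genes, 228 had a single peak, 64 had a pair of peaks and 27 had 3 or more, so neighbouring peaks of a gene are not independent. H3K9me3 was measured by ChIP-seq in whole crypt isolates from the colon of male C57BL/6 mice, with 3 WT libraries and 3 *Smarcad1*-KO libraries. The KO mice were homozygous for a *Smarcad1* allele with loxP sites around exons 12 to 14 and carried *Vil-cre*, a Cre transgene under the Villin promoter, so that the deletion was made in the intestinal epithelium only. Both genotypes shared the strain. The sources used here give neither the age of these mice nor whether the WT mice carried the floxed allele or the transgene, nor whether each library came from a mouse of its own. All p-values therefore measure the spread between libraries. Each genotype also had 1 input library of chromatin without immunoprecipitation. No peak was assigned to *Smarcad1*, so the genotype labels could not be checked in these values.

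H3K9me3 is a mark of constitutive heterochromatin, laid down over repeats, silenced gene clusters and many dispersed sequences of retrotransposon origin. Apart from miRNAs and clusters such as SNORD115 and SNORD116, many small RNA families exist in the mouse genome as a few functional genes and many copies. Most such copies are thought to be pseudogenes inserted by retrotransposition, and they differ from the functional gene by scattered substitutions. Spliceosomal snRNAs build the spliceosome, U7 guides the 3′ end cutting of replication-dependent histone mRNAs, and 7SK holds the elongation factor P-TEFb inactive. H/ACA and C/D box snoRNAs guide pseudouridylation and 2′-O-methylation of other RNAs, Y RNAs bind the Ro protein, and miRNAs pair with target mRNAs through a short seed.

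The sequences of the families that the results turn on were read from the RefSeq genome of GRCm38, the build of the peak file. The U7 family is shown first because its copies lay under peaks most often among the large families. Capitals mark TTGTCTA, part of the Sm-binding site of the functional gene *Rnu7* (chr6:124741225-124741286, minus strand), and the copies are named by the chromosome and start of the peak that covers them.
Rnu7: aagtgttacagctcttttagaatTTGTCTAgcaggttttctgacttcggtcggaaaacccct
U7 under the chr14 56852251 peak: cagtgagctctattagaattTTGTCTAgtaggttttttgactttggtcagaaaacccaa
U7 under the chr12 98596051 peak: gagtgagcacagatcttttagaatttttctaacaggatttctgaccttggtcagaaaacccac
U7 under the chr10 92484601 peak: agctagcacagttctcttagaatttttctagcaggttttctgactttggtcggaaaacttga
U7 under the chr3 151925551 peak: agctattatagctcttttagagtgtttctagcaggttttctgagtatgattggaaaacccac

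The identity of these 4 copies with *Rnu7* was 80.6%, 82.3%, 82.3% and 80.6%. The first copy kept the TTGTCTA letters and the other 3 did not. Across the 72 U7 copies annotated by RefSeq, 6 held TTGTCTA on their own strand (8.33%), against 2 of the 21 copies under a peak (9.52%) and 4 of the 44 with no peak within 5 kb (9.09%).

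SNORA17 gave the largest number of peaks, and its functional gene *Snora17* (chr2:26639190-26639321, minus strand) is shown with the peak-covered copy that was most like it. Capitals mark the ACA box, searched in the last 8 bases.
Snora17: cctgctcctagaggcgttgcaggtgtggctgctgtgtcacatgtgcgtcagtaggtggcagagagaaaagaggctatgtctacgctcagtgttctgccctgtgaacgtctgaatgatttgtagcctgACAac
SNORA17 under the chr5 78779851 peak: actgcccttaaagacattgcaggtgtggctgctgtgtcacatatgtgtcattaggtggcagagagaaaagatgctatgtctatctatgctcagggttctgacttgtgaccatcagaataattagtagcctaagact

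This copy was 84.1% identical to *Snora17* and had no ACA in that window. The box was present in 262 of 437 SNORA17 copies (60.0%) and in 5 of the 12 under a peak (41.7%).

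By class, 164 of the 444 peaks lay at H/ACA box snoRNAs, of which 123 were SNORA17, and 148 lay at spliceosomal snRNAs, of which 103 were U6, 28 were U1, 10 were U4, 5 were U5 and 2 were U2. A further 42 lay at 7SK, 36 at U7, 20 at 5S rRNA, 18 at miRNAs, 9 at C/D box snoRNAs and 7 at Y RNAs. Only 80 of the 444 peaks overlapped the RNA gene itself, while 185 lay upstream and 179 downstream of it by its strand, at a median distance of 1626 bp over all 444. Among the classes, U7 peaks sat closest, with 16 of 36 over the gene and a median distance of 460 bp. Within the spliceosomal class, 3 of the 5 U5 peaks lay over the gene. In GENCODE (release M21), 16 of the 444 overlapped a protein-coding gene, 3 of them at an exon. The peaks were chosen by a small RNA being the closest gene, which itself limits overlap with coding genes. Chromosome 1 held 54 of the peaks (12.2%, against 10.2% of all peaks) and chromosome X held 3 (0.676% against 0.882%).

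The RefSeq copies of a family, rather than the peaks, were used to give the share of copies that is marked. Of the 72 RefSeq U7 copies, 21 were under a peak (29.2%) and 28 had a peak within 5 kb (38.9%), whereas peaks covered 2.95% of the sequenced bases and 16.4% lay within 5 kb of a peak. U6 had 21 of 711 copies under a peak (2.95%), SNORA17 12 of 437 (2.75%), SNORA48 5 of 167 (2.99%) and U1 2 of 119 (1.68%), all close to the share of all bases. The small U5 family had 3 of 10 copies under a peak (30.0%), and 0 of 29 RefSeq 5S copies were under one. The copies counted here do not include every RNA gene named in the peak file. In that file, 3 of 20 5S rRNA peaks and 16 of 36 U7 peaks overlapped their gene. These shares are descriptions of a single peak set called on all libraries together, with no test. Reads of low mapping quality were removed before peaks were called, which can lower the coverage of near-identical copies, and the part of this in the shares was not tested.

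**Figure D1:**
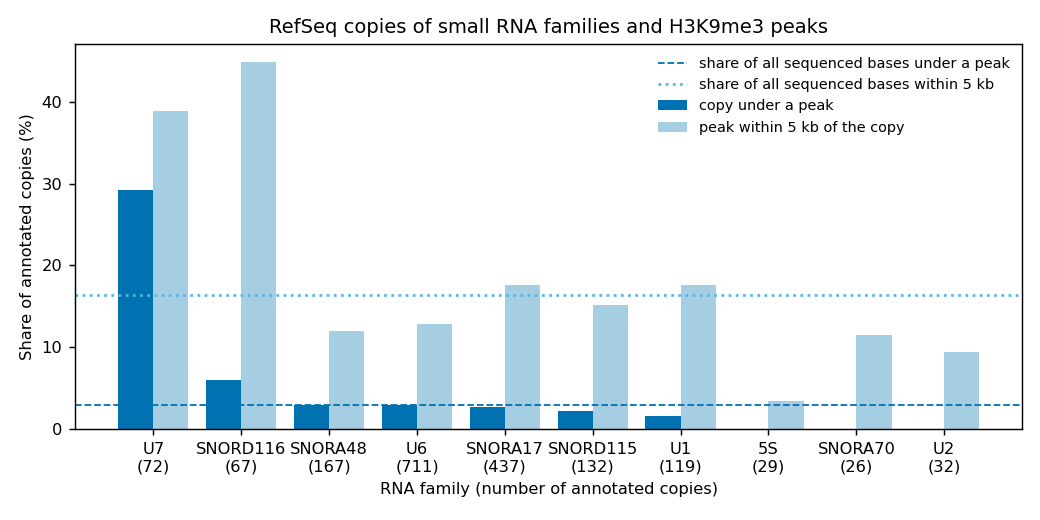
Share of the annotated RefSeq copies of each small RNA family that lay under an H3K9me3 peak (dark bars) or had a peak within 5 kb (light bars), for families with at least 20 copies. The dashed and dotted lines are the same shares over all sequenced bases, 2.95% and 16.4%. U7 stands at 29.2% and 38.9% and SNORD116 at 5.97% and 44.8%, while U6, SNORA17 and SNORA48 lie near the lines.

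The DNA before the U7 copies was compared between copies. Over the 500 bp upstream of each copy, 101 of the 210 pairs of peak-covered U7 copies (48.1%) had at least 10 identical stretches of 14 bases in common, against 186 of 946 pairs (19.7%) of copies with no peak within 5 kb. Downstream of the copies the shares were 3.81% and 7.61%. For U6, 0 of 210 pairs under a peak shared the upstream sequence, against 936 of 191271 pairs (0.489%) with no peak within 5 kb. In the SNORD115 and SNORD116 clusters 98.2% and 100% of pairs with no peak within 5 kb shared it, and 100% of the few pairs under a peak did. Shared upstream sequence thus also occurred among copies without a peak. The peak reached further upstream than downstream of the U7 copy in 17 of 21 cases, with a median of 1318 bases upstream and 518 downstream. The pairs share copies and are not independent, so these are counts without a test. Of the 21 peaks over U7 copies, 10 were assigned to U7 in the peak file and 11 to another gene or to none, so the 36 U7 peaks do not include all of them.

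Of 7 functional genes looked at, 1 had a peak within 5 kb (14.3%, against 16.4% of all sequenced bases). These covered U7, SNORA17, 7SK, Y RNA and U1, and no functional U6, U2, U4, U5 or 5S gene was looked at. A share over 7 genes is too coarse to compare with that of the bases. *Rnu7*, *Snora17*, *Rn7sk*, *Rny1*, *Rny3* and the U1 gene *Rnu1a1* had no peak within 5 kb, and the nearest peak was 43280 bp away at *Snora17*, 87325 bp away at *Rnu7* and 133527 bp away at *Rny3*. The U1 gene *Rnu1b1* had a peak 1834 bp away.

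The deposited level of a peak is the log2 of its read count after the libraries were brought to a shared distribution. At this depth a median peak of these 444 held 15 to 21 reads per library, so that single small peaks were measured with wide counting error. The median width of the 444 peaks was 1050 bp and their median WT level 4.07, the same values as over all 53761 peaks. The classes differed around this. U7 peaks had a median width of 1950 bp and a median WT level of 4.93, C/D box snoRNA peaks 1800 bp and 4.83, and miRNA peaks 1575 bp and 4.52. SNORA17 peaks, in contrast, had a median of 1050 bp and 3.87, and U6 peaks 1050 bp and 4.06.

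The higher level of U7 peaks was seen in every library. The median over the 36 peaks was 4.94 ± 0.11 (SD, n = 3) in WT, from 4.82 to 5.02, and 4.83 ± 0.07 (SD, n = 3) in KO, whereas the median over all peaks was 4.10 ± 0.02 (SD, n = 3) and 4.10 ± 0.04 (SD, n = 3). Per kilobase the classes lay closer together. The median WT level per kilobase was 4.04 on the log2 scale for U7, 3.90 for miRNAs, 4.10 for C/D box snoRNAs, 3.90 for H/ACA box snoRNAs, 4.03 for spliceosomal snRNAs, 4.00 for 7SK, 3.83 for Y RNAs and 4.01 for 5S rRNA, against 3.97 over all peaks. Peaks that overlapped their RNA gene were wider than those beside it (median 1800 against 1050 bp) and had about the same level per kilobase (3.98 against 3.99).

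**Figure D2:**
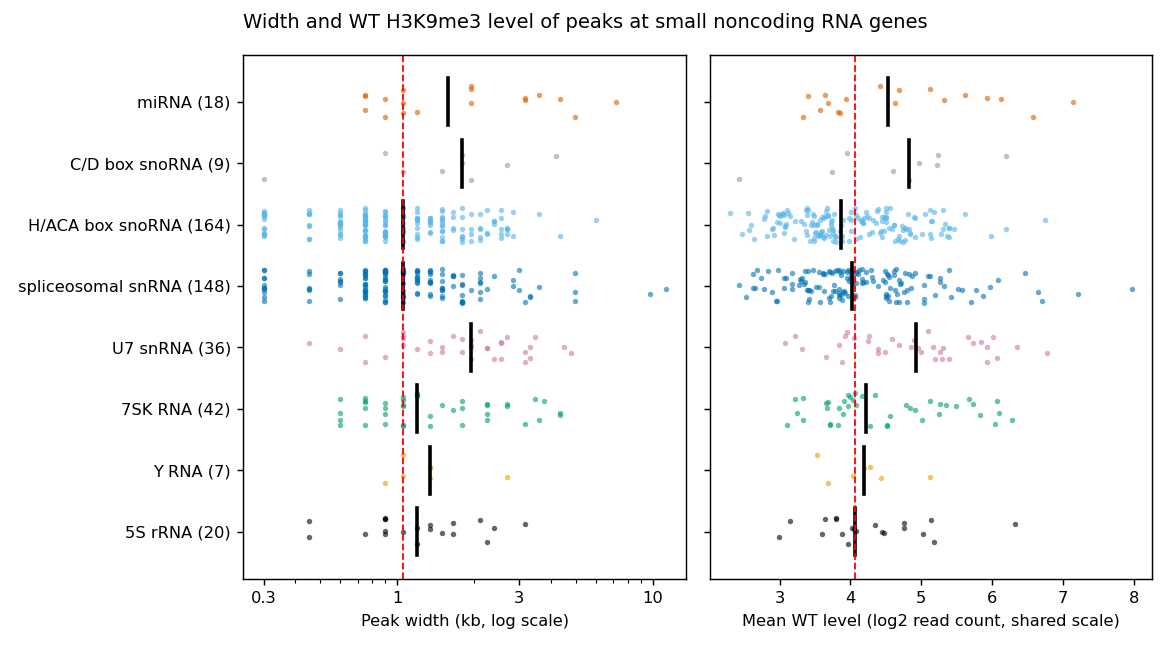
Width in kb (left, log axis) and mean WT level as log2 read count (right) of each of the 444 peaks, by RNA class with the number of peaks in brackets. Black bars are class medians and the red dashed lines are the medians of all peaks, 1050 bp and 4.07. The U7 medians of 1950 bp and 4.93 lie to the right of both lines.

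The strongest peak of all was at a U5 copy (chr17:94869901-94881150). This peak was 11250 bp wide and began within the U5 copy, and its WT levels were 7.94, 7.96 and 8.01 and its KO levels 7.84, 7.97 and 7.84. The strongest and widest miRNA peak lay 171 bp downstream of *Mir5103* (chr1:34425751-34432950, 7200 bp), with WT levels of 7.35, 6.96 and 7.11 and KO levels of 7.25, 7.44 and 7.22. The strongest U7 peak covered a copy on chromosome 14 (chr14:56852251-56857050, 4800 bp), at 6.88, 6.69 and 6.72 in WT and 6.79, 6.44 and 6.56 in KO. In each of these the genotypes overlapped.

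Among the other classes, the strongest H/ACA box snoRNA peak lay 2030 bp upstream of a SNORA17 copy (chr7:93150001-93156000), with a mean WT level of 6.74 ± 0.20 and a mean KO level of 6.66 ± 0.19 (SD, n = 3). The strongest 7SK peak covered its copy (chr9:120789901-120793500) at 6.28 ± 0.08 in WT and 6.15 ± 0.05 in KO (SD, n = 3), and the widest 7SK peak (chr1:104485801-104490150, 4350 bp) did so at 5.83 ± 0.19 and 5.86 ± 0.29. The strongest 5S rRNA peak lay over n-R5s168 (chr6:140317501-140320650) at 6.31 ± 0.37 in WT and 5.92 ± 0.22 in KO, and the strongest Y RNA peak (chr8:31661401-31664100) at 5.12 ± 0.11 and 5.20 ± 0.19. These peaks overlapped between genotypes. The strongest C/D box snoRNA peak, 341 bp downstream of SNORD93 (chr5:23706451-23710650), had WT levels of 5.97, 6.34 and 6.28 and KO levels of 6.67, 6.82 and 6.37, so that all 3 KO libraries lay above WT, but the difference did not pass the test across all peaks (limma adjusted p = 0.208).

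At the low end, the weakest peak of the 444 lay 2598 bp upstream of SNORA32 (chr13:62546101-62546400), inside an intron of the zinc finger gene *Zfp934*, with WT levels of 2.55, 2.67 and 1.69. The weakest spliceosomal snRNA peak was beside a U1 copy (chr11:18806251-18806550) and held 3, 9 and 6 reads in the WT libraries. The weakest peaks of U7 (chr9:9306001-9306450), 7SK (chr3:124849651-124850250) and 5S rRNA (n-R5s70, chr11:72279601-72280050) had mean WT levels of 3.08, 3.10 and 2.99. All 5 were between 300 and 600 bp wide.

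Input reads show how many fragments a region gives without the antibody. The median input count of the 444 peaks was 10 reads for WT and 9 for KO, as for all peaks. The largest class medians in the WT input were 16.5 reads for U7 and 13 for C/D box snoRNAs and Y RNAs. In the KO input these classes had 16, 12 and 7 reads, so Y RNAs lay below the 9 of all peaks there. U7 and C/D box snoRNA peaks were also wider (median 1950 and 1800 bp) than all peaks (1050 bp), and input counts are not per length. The median of WT level minus log2 WT input was 0.79 over the 444 and over all peaks alike. It was 0.92 for 7SK, 0.84 for U7 and C/D box snoRNAs, 0.83 for miRNAs, 0.80 for spliceosomal snRNAs, 0.75 for H/ACA box snoRNAs, 0.68 for 5S rRNA and 0.42 for Y RNAs. ChIP values were matched to each other and inputs were not, so this difference ranks peaks within the table and is not an absolute enrichment. For C/D box snoRNAs it ran from 0.67 to 1.36 when a WT library was left out. Summed over the 444 peaks, input counts came to 5518 reads for KO and 5945 for WT, a ratio of 0.928 that was close to the 0.943 of all peaks.

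Single peaks departed from that ratio. Where the WT input had 10 or more reads (246 peaks), the KO to WT input ratio was highest, 2.1, near a U6 copy (chr1:139783201-139785300, 10 and 21 reads), and 2.0 at another U6 copy (chr16:22220701-22222500, 10 and 20 reads) and near a 7SK copy (chr9:80030101-80032800, 20 and 40 reads). It was lowest near a 7SK copy (chr3:124847101-124848000), with 11 reads in WT and 1 in KO. Next came a U4 copy (chr5:83687551-83688450) with 12 and 3 reads and a SNORA17 copy (chr12:39457351-39458100) with 10 and 3. With 1 input per genotype these ratios have no replicate.

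The comparison of KO with WT asked whether loss of Smarcad1, a chromatin remodeler linked to heterochromatin, changed H3K9me3 at these peaks. With limma on all 53761 peaks and Benjamini-Hochberg adjustment, 3 of the 444 peaks were lower in KO (0.676%) and 0 were higher, whereas 1.66% of all peaks passed, 0.863% of them lower and 0.796% higher. At an unadjusted p under 0.05 there were 37 of the 444 (8.33%), 24 of them lower and 13 higher, against 10.6% of all peaks. All peaks leaned the same way at that threshold, with 3256 lower and 2432 higher among 5688. KO and WT values did not overlap at 55 of the peaks (12.4%), against 15.6% of all peaks. Of these, 32 were lower in KO (8.42% of all peaks were) and 23 were higher (7.2% of all peaks were). Peaks near other genes passed the test more often (4.00%) than peaks without any gene within 5 kb (0.735%). The share at small noncoding RNA genes was close to the latter.

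By class, 1 of 18 miRNA peaks and 2 of 148 spliceosomal snRNA peaks were called, both of the latter at U6. None of the 164 H/ACA box snoRNA, 42 7SK, 36 U7, 20 5S rRNA, 9 C/D box snoRNA and 7 Y RNA peaks were called by limma, while 9, 4, 3, 4, 1 and 1 of them had an unadjusted p under 0.05. Over all peaks 1.66% were called and 10.6% had an unadjusted p under 0.05, so 0 calls in a small class carry little weight. The median log2 difference, KO minus WT, was -0.02 over the 444 peaks and 0.00 over all peaks. It was -0.19 for 5S rRNA, where 15 of 20 peaks had the lower mean in KO, -0.11 for 7SK (26 of 42), -0.10 for U7 (23 of 36), 0.02 for H/ACA box snoRNAs (78 of 164), -0.02 for spliceosomal snRNAs (78 of 148), 0.01 for C/D box snoRNAs (4 of 9), 0.11 for Y RNAs (2 of 7) and 0.13 for miRNAs (8 of 18). Over all peaks, 49.7% had the lower mean in KO. The miRNA median was between -0.03 and 0.08 when any single library was left out. Taken library by library, the class medians of the 2 genotypes overlapped except for 5S rRNA, where the median level was 4.27 ± 0.03 in WT (4.24 to 4.31) and 4.05 ± 0.05 in KO (4.00 to 4.08; SD, n = 3). The 20 peaks at 5S rRNA also held fewer input reads in KO (209 against 258, a ratio of 0.81), the median difference turned to 0.17, higher in KO, once the log2 input was subtracted, and the part of input in it was not tested.

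**Figure D3:**
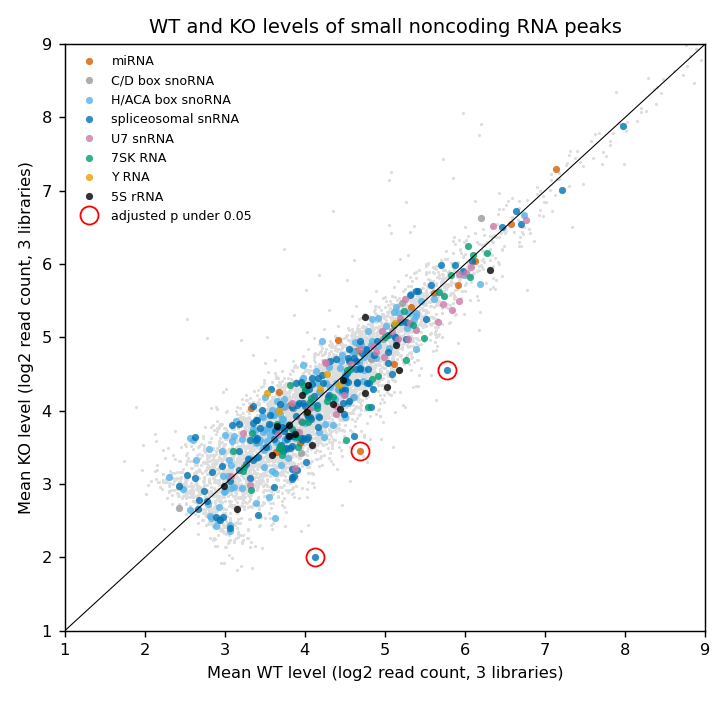
Mean KO level against mean WT level (log2 read count, 3 libraries each) for the 444 peaks, coloured by RNA class, over 6000 other peaks drawn in grey. The line marks equal levels; the 3 peaks circled in red passed the test and all lie below the line, and the rest follow it.

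A U6 copy on chromosome 3 carried 2 of the 3 called peaks. This copy (chr3:97140552-97140661, minus strand) is named U6 in the file under the identifier ENSMUSG00000088511, and the peaks lay 2652 and 1602 bp downstream of it, 20877 and 19827 bp from the phosphatase gene *Acp6* and outside any coding gene. The first peak (chr3:97135951-97137900, 1950 bp) had levels of 5.73, 5.86 and 5.72 in WT and 4.25, 4.60 and 4.82 in KO. All KO libraries were below all WT libraries, with a log2 difference of -1.21 (SE 0.21, adjusted p = 7.84e-05 by limma), 2.32-fold lower. In reads this was 47, 65 and 60 in WT and 16, 24 and 30 in KO.

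The second peak (chr3:97138201-97138950, 750 bp) was at 3.88, 4.17 and 4.32 in WT and 3.26, 2.59 and 0.15 in KO. The groups did not overlap, and the last KO library stood far below the other KO libraries, at 1 read or none against 8 and 6 reads. The log2 difference was -2.13 (SE 0.50, adjusted p = 0.00983 by limma), and without that library it was -1.20 (adjusted p = 0.116). Input did not fall at either peak: the first held 15 reads in the WT and 20 in the KO input, the second 6 in each.

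The next peak on the other side of the first one (chr3:97133551-97135350) had levels of 5.12, 5.44 and 5.32 in WT and 4.66, 5.51 and 5.37 in KO, so that the genotypes overlapped. Within 50 kb there were 6 peaks besides the first called peak, all with the lower mean in KO, as had 49.7% of all peaks. Their median log2 difference was -0.27 and the smallest was -0.05. Of the 6 peaks, the second called peak alone passed the test.

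The third called peak lay 3324 bp upstream of *Mir5115* (chr2:73016251-73017300, 1050 bp). It had levels of 4.76, 4.54 and 4.75 in WT and 3.42, 3.35 and 3.56 in KO, which corresponds to 24, 26 and 31 reads against 9, 10 and 13. The KO libraries all lay below WT, and the log2 difference was -1.24 (SE 0.28, adjusted p = 0.00717 by limma), 2.36-fold lower. The input held 7 reads in WT and 15 in KO at this peak, with 1 input library per genotype. The peak over the *Mir5115* gene itself (chr2:73008301-73013250, 4950 bp) was stronger and overlapped between genotypes, at 6.31, 6.78 and 6.62 in WT and 6.50, 6.51 and 6.64 in KO. Within 50 kb there were 4 peaks besides the called one, 3 with the lower mean in KO (49.7% of all peaks) and 1 with the higher. Genotypes did not overlap at 1 of the 4, which was higher in KO (7.2% of all peaks were), and 0 were called (1.66% of all peaks were).

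**Figure D4:**
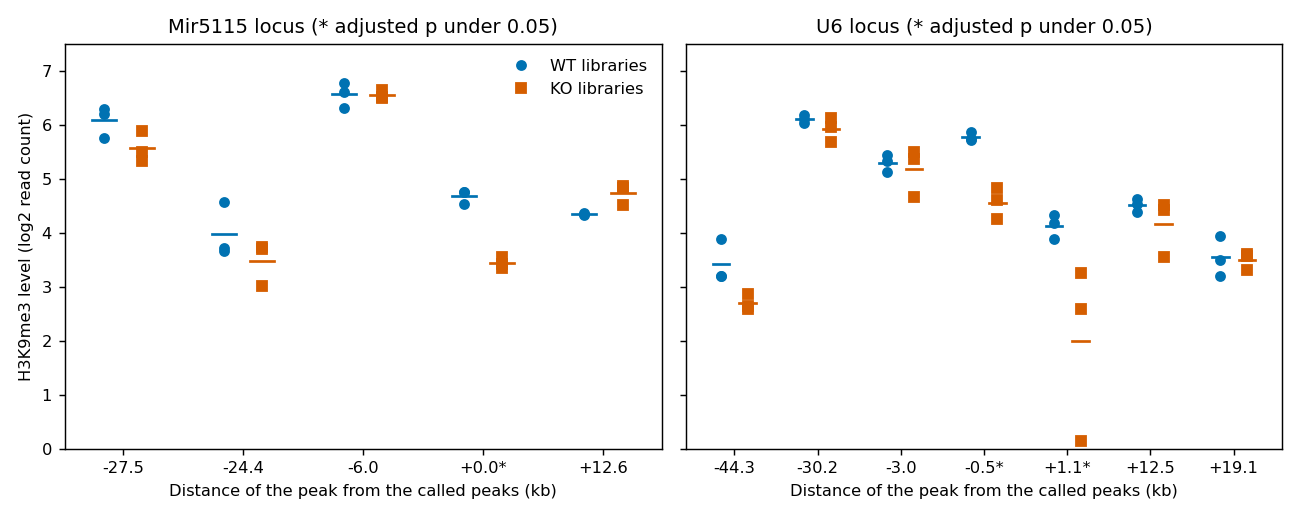
H3K9me3 level (log2 read count) in each WT library (blue circles) and KO library (orange squares) at all peaks within 50 kb of the called peaks at *Mir5115* (left) and U6 (right), placed in genome order and labelled by distance in kb; horizontal bars are means and asterisks mark adjusted p under 0.05. Only the asterisked peaks separate widely, and at the right-hand U6 peak a single KO library lies at 0.15.

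Some of these calls depended on single libraries. The first U6 peak was called whichever library was left out. The *Mir5115* peak was not called without WT replicate 1 or WT replicate 3 (adjusted p of 0.0636 and 0.0686), and the second U6 peak was not called without WT replicate 2, WT replicate 3 or KO replicate 3 (0.064, 0.0858 and 0.116). With a variance prior that ignored the level of the peak, none of the 3 passed (adjusted p of 0.106, 0.0672 and 0.353 for the first U6, the *Mir5115* and the second U6 peak).

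The 18 miRNA peaks fell on 12 miRNA genes, and 4 of them overlapped the miRNA gene, at *Mir5115*, *Mir1251*, *Mir344-2* and *Mir344d-1*. The *Mir344* genes on chromosome 7, a cluster whose nearest coding gene in GENCODE, the imprinted gene *Ndn*, lay 359069 to 662819 bp from the peaks, took 7 of the 18. Their mature sequences from RefSeq are printed because 4 of these genes share a 5p seed and 2 share a 3p seed. Capitals mark the seed, bases 2 to 8.
mmu-miR-344d-1-5p: aGUCAGGCugcuggcuauacacca
mmu-miR-344b-5p: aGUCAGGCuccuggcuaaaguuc
mmu-miR-344-5p: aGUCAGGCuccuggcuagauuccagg
mmu-miR-344g-5p: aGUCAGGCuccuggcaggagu
mmu-miR-344d-3p: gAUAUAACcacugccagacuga
mmu-miR-344e-3p: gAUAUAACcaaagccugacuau
The mature sequences of 3 other genes with strong miRNA peaks are printed for comparison. *Mir5115*, with the second strongest miRNA peak, is named only.
mmu-miR-5103: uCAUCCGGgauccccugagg
mmu-miR-682: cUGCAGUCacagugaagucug
mmu-miR-1251-5p: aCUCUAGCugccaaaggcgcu

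The *Mir344* peaks spread over 304 kb (from chr7 61683001 to chr7 61987500), a stretch that held 37 peaks in all. Their mean WT level ranged from 3.57 near *Mir344g* to 6.13 at a 4350 bp peak 3570 bp upstream of *Mir344b* (chr7:61794151-61798500), where WT levels were 6.29, 6.00 and 6.09 and KO levels 5.87, 6.00 and 6.26. The peak over *Mir344-2* (chr7:61938301-61940250) was at 3.88, 4.70 and 4.65 in WT and 4.73, 5.00 and 5.19 in KO. The genotypes did not overlap at this 1 peak of the 7, against 15.6% of all peaks. The log2 difference of 0.56 (SE 0.25) did not pass the test (adjusted p = 0.368 by limma) and was 0.29 without WT replicate 1, and input reads rose with it, from 12 in WT to 23 in KO. The peak over *Mir344d-1* (chr7:61683001-61683750) was at 3.65, 3.56 and 3.71 in WT and 3.26, 3.19 and 3.86 in KO, which overlap. Of the 37 peaks in the stretch, 0 were called by limma (1.66% of all peaks were). KO and WT did not overlap at 3 of the 37, 1 lower and 2 higher, against 15.6% of all peaks.

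*Mir1251* and *Mir135a-2* on chromosome 10 had 5 peaks between them. The peak over *Mir1251* (chr10:92134651-92137800) had levels of 5.03, 5.64 and 5.29 in WT and 5.56, 5.04 and 5.64 in KO. The 3 peaks upstream of *Mir135a-2* were weaker, with mean WT levels of 3.68, 3.40 and 3.82. At the nearest of them (chr10:92073451-92074500) all KO libraries (4.79, 4.03 and 3.95) lay above WT (3.77, 3.56 and 3.71), with an adjusted p of 0.51 by limma. *Mir3963*, with the weakest miRNA peak (chr3:151027351-151028250), showed the same order, at 3.52, 2.87 and 3.61 in WT and 3.71, 3.84 and 4.55 in KO (adjusted p = 0.453 by limma). *Mir1983* showed the opposite order (chr13:21899701-21901650), at 4.98, 5.25 and 5.12 in WT and 4.86, 4.86 and 4.20 in KO (adjusted p = 0.437 by limma). Non-overlap was reached by 5 of the 18 miRNA peaks, against 15.6% of all peaks, 2 of them lower in KO (8.42% of all peaks) and 3 higher (7.2%).

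**Figure D5:**
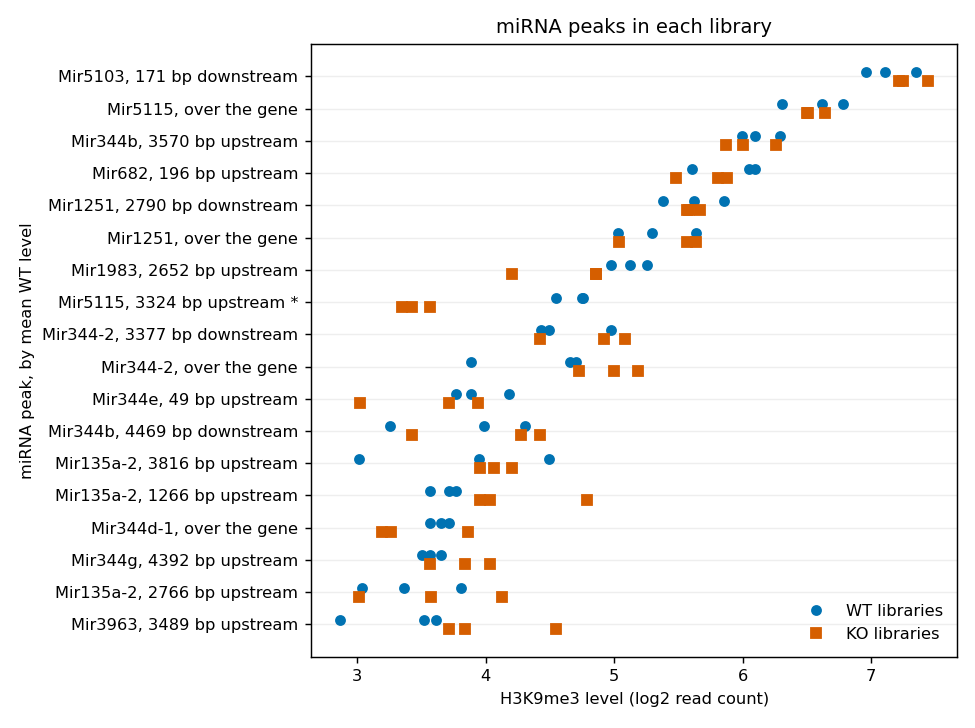
Level (log2 read count) of each of the 18 miRNA peaks in the 3 WT libraries (blue circles) and the 3 KO libraries (orange squares), ordered by mean WT level from 3.33 at *Mir3963* to 7.14 at *Mir5103*. The asterisk marks the peak 3324 bp upstream of *Mir5115*, whose KO libraries lie apart from WT by more than the spread within either genotype.

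In the remaining classes the peak with the largest difference did not pass the test. For 7SK it lay in an intron of *Aktip* (chr8:91183351-91184400), at 4.63, 3.95 and 4.97 in WT and 3.57, 3.35 and 3.86 in KO. The groups did not overlap, and the log2 difference was -0.92 (SE 0.30, adjusted p = 0.129 by limma). For 5S rRNA it was a peak on chromosome 18 (chr18:38358001-38359650), at 4.87, 5.04 and 5.15 in WT and 4.16, 4.28 and 4.55 in KO, a log2 difference of -0.69 (SE 0.24, adjusted p = 0.158 by limma). Input fell alongside it, from 24 to 16 reads, and the part of this in the difference was not tested.

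For Y RNA the largest difference was upward, in a peak that was also the weakest of its class (chr1:141311701-141312750). Its levels were 3.65, 3.45 and 3.50 in WT and 4.34, 4.12 and 4.28 in KO, a log2 difference of 0.71 (SE 0.30, adjusted p = 0.338 by limma) with no overlap. For SNORA17 a 600 bp peak (chr2:42810151-42810750) was at 3.88, 4.03 and 2.96 in WT and 3.42, 1.02 and 3.18 in KO. The groups overlapped, and the log2 difference of -1.08 (SE 0.48, adjusted p = 0.382 by limma) became -0.32 without KO replicate 2, which held 2 reads. The largest differences at U7 (chr6:103830301-103831050, -0.65, SE 0.36) and at the C/D box snoRNA U3 (chr1:39518851-39519750, -0.53, SE 0.35) were within overlapping groups.

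The imprinted small RNA loci held few of these peaks. The *Snord115*/*Snord116* cluster on chromosome 7 contained 27 peaks between *Ube3a* and *Snrpn*, of which 1 was assigned to a small RNA, 138 bp downstream of a SNORD116 copy (chr7:59675551-59675850). This 300 bp peak was the weakest of the C/D box class, at 1.40, 2.18 and 3.71 in WT and 2.87, 2.32 and 2.84 in KO. None of the 27 was called by limma, against 1.66% of all peaks. By RefSeq copies, 4 of 67 SNORD116 (5.97%) and 3 of 132 SNORD115 (2.27%) were under a peak, against 2.95% of all sequenced bases. A peak lay within 5 kb of 30 SNORD116 copies (44.8%) and 20 SNORD115 copies (15.2%), against 16.4% of all sequenced bases. The *Dlk1*-*Dio3* region on chromosome 12 held 13 peaks, of which 1 was called (1.66% of all peaks were), and *Sfmbt2* on chromosome 2 held 0. Neither had a peak assigned to a small RNA. With so few peaks these counts say little about the loci.

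Genes that make or process these RNAs were looked at beside them. Of 55 listed genes, 9 had a peak, 10 peaks in all, and 0 of the 10 were called by limma in either direction (1.66% of all peaks were), with 2 at an unadjusted p under 0.05 (10.6% of all peaks). These were at *Polr3c* and *Polr3g*, which encode subunits of RNA polymerase III, the enzyme that transcribes U6, 7SK, Y and 5S RNA. The *Polr3c* peak had a mean level of 5.10 in WT and 4.56 in KO (adjusted p = 0.355 by limma), and the *Polr3g* peak 4.11 and 4.77 (adjusted p = 0.293 by limma). The peaks near the miRNA processing genes *Drosha* and *Dicer1* lay 3711 and 3642 bp away, at 4.61 and 4.64 in WT and 4.22 and 4.35 in KO.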

How the data were processed

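H3K9me3 ChIP-seq was analysed in 3 WT and 3 KO libraries and 1 input per genotype. The authors trimmed reads with Trim Galore, mapped them to GRCm38 with Bowtie2 (2.3.2), dropped duplicates and reads under mapping quality 20, and called peaks with MACS on all ChIP libraries against both inputs. The submitters' processing notes give Trim Galore 0.6.1. The labels describe single-end reads and the methods paired reads. For ChIP, the authors deposited log2 counts per peak that had been matched to one distribution over 6 libraries. Inputs were deposited as log2 of whole reads, unscaled, 733413 for WT and 691770 for KO over all peaks. A deposited table of the authors' own differential peaks was not used.

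KO was compared with WT in R (4.3.3) by limma (3.58.1) with a trended variance prior, two-sided, with genotype alone and Benjamini-Hochberg adjustment over 53761 peaks, and called at an adjusted p under 0.05. The fit was also run on simulated data with the trend of variance on level built in, which cannot check the choice of a trended prior. The gene orientation in the file is given as seen from the peak, so the side of a peak was reversed to be relative to the RNA gene, which matched coordinates and strand at 349 of 349 placed peaks beside their gene. Reads per library were read from the steps of the values. RNA copies came from RefSeq and gene positions from GENCODE, where 303 of 319 RNA gene identifiers were found. Named were all called peaks, the strongest, weakest and widest peak and the peak with the largest difference of each class, the 3 highest and 3 lowest input ratios, the imprinted loci and peaks over miRNAs. Other miRNA peaks, the *Polr3c*, *Polr3g*, *Drosha* and *Dicer1* peaks and neighbours of called peaks were added after their values were seen. Members, lists and tests were chosen with earlier results of these data known. Alternatives are given at the end.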

Additional observations from a re-analysis of the deposited data

How the results depend on the processing

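The 3 calls among the 444 peaks held under a robust prior, median centring, quantile normalization, a replicate block and voom on reads, and 2 of them held when only peaks with a mean level of at least 4 were tested. With limma and a prior without a trend, 0 of the 444 passed (27 had an unadjusted p under 0.05) and 127 of all peaks passed instead of 892. Of the called peaks, 0 overlapped their RNA gene. Voom called 573 of all peaks. Leaving out a library gave from 1 call, without WT replicate 3, to 4 calls. Subtracting the log2 input gave 123 calls (27.7%, and 15873 of all peaks), since a single input value enters all 3 libraries of its genotype, and turned the differences at U3 on chromosome 1 to 0.34 and at *Mir344-2* to -0.38. Same-numbered KO and WT libraries did not deviate together (Pearson r from -0.00 to 0.02 over peaks), so the labels' numbers were not used as pairs, and the block gave the same 3 calls and changed no other call reported.

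The class medians of KO minus WT moved by more than the spread between libraries in these cases. After input subtraction they were 0.09 for H/ACA box snoRNAs, 0.10 for spliceosomal snRNAs, 0.73 for Y RNAs and 0.17 for 5S rRNA. For peaks over the gene alone they were -0.48 for C/D box snoRNAs (2 peaks), 0.00 for 7SK (11 peaks) and 0.15 for 5S rRNA (3 peaks). With a mean level of at least 4 the 5S rRNA median was -0.25, and without a library it ranged from -0.25 to -0.10, while that of Y RNAs ranged from 0.01 to 0.33. The miRNA median, 0.13, was -0.02 with a mean level of at least 4 and -0.03 to 0.08 without a library, shifts within the spread between libraries.

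The median WT level over input became 0.75 for miRNAs, 0.85 for spliceosomal snRNAs, 0.81 for 7SK and 0.81 for 5S rRNA with pooled inputs. With at least 10 WT input reads it was 0.61 for H/ACA box snoRNAs, 0.65 for spliceosomal snRNAs, 0.76 for 7SK and 0.43 for 5S rRNA. For peaks over the gene alone it was 0.65 for H/ACA box snoRNAs (18 peaks) and 0.74 for spliceosomal snRNAs (25 peaks). It was 0.66 for the 1 Y RNA peak over its gene and 0.19 for 3 such peaks of 5S rRNA. Without a WT library it ranged from 0.75 to 0.82 for miRNAs and from 0.76 to 0.83 for spliceosomal snRNAs. For C/D box snoRNAs the range was 0.67 to 1.36. The cause of these shifts was not tested. Peaks with few reads, 1 input per genotype and 7 to 20 peaks in the smallest classes, with as few as 1 over the gene, limit the precision.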
